A study of Tursiops truncatus with 5 samples.

Results

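Platelet and megakaryocyte genes were followed in the whole blood of 3 bottlenose dolphins (*Tursiops truncatus*), through 34 human Entrez Gene identifiers that stand for 33 genes with a symbol and 1 identifier without one. A gene was taken as present when a row of the deposited table carried its identifier, which is that of the closest human protein. This held for 23 of the genes, in 30 de novo assembled transcripts, out of 7671 identifiers in the table. The 5 libraries came from total RNA of whole blood drawn in 2013 and not depleted of globin, because the RNA was too dilute for that step. Pele, a female of 28 years, gave 2 libraries (April and June), Keo, a female of 12 years, gave 2 (July and September), and Hua, a male of 5 years, gave 1 (June). The animals were healthy, were kept at the same facility and formed no treatment groups, so the comparison available is that of Keo with Pele. Animal, age and sampling date cannot be told apart in it, and the 2 libraries of an animal are draws on different dates.

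Platelets are anucleate cell fragments shed by megakaryocytes, and the RNA they carry was made by those cells. They bind a damaged vessel wall through receptors for von Willebrand factor and collagen, are activated through ADP and thromboxane, release alpha granules filled with chemokines and adhesive proteins, and join to each other when the fibrinogen integrin is switched on from inside the cell. Several of the genes listed, such as the chemokine and glycoprotein genes, are largely restricted to this lineage among blood cells, whereas the adaptors of the actin cytoskeleton are shared with leukocytes.

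Values are TPM, a level per transcript length that gives every library the same total and permits comparison between genes, although it keeps no read depth. The rows of a pair of hemoglobin identifiers took 55.9% to 74.4% of the deposited TPM, with the lowest share in Pele June and the highest in Keo July. Levels are therefore given as rescaled TPM, in which the 4 hemoglobin rows were left out and each library was brought back to 1000000, unless deposited TPM is stated. Rescaling multiplied the values of Pele June by 2.29 and those of Keo July by 3.93. In blood as a whole, fewer platelets and less RNA per platelet cannot be told apart.

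The receptor that first tethers platelets was missing from the table. None of the 4 chains of the glycoprotein Ib-IX-V complex, which binds von Willebrand factor (*GP1BA*, *GP1BB*, *GP9* and *GP5*), had a row. Neither did *VWF* itself, the platelet tubulin *TUBB1*, the podoplanin receptor *CLEC1B*, the collagen integrin chain *ITGA2*, the ADP receptor *P2RY1* or multimerin 1 (*MMRN1*), a carrier of factor V in alpha granules. The identifier without a symbol had no row either. The symbols of these 10 genes all occur in the RefSeq gene table of the dolphin assembly mTurTru1.mat.Y. The table keeps no row with a mean under 1 TPM or with fewer than 3 libraries above 0, and not every row had a human identifier, so an absent row gives no level and does not show that the gene was silent. Of the 18 genes largely restricted to the lineage 10 had a row, and of the 15 shared with leukocytes 13 did. The weakest genes retained lay close to the limit of the table, *P2RY12* at a mean of 1.05 and *ITGB3* at 1.35 deposited TPM.

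The 23 genes together held 2251 ± 315 rescaled TPM (SD, n = 5 libraries), or 0.225% of the total without the 4 hemoglobin rows. On the deposited scale they held 750 ± 268 TPM. The sum was 2459 TPM in Pele April, 2612 in Pele June, 2085 in Keo July, 2290 in Keo September and 1809 in Hua June. Both libraries of Pele thus lay above both of Keo, and Hua lay lowest. The 10 restricted genes gave 983 ± 156 TPM and the 13 shared genes 1268 ± 175 TPM. *PF4* made up most of the restricted sum. The other 9 restricted genes gave 389.72 and 381.89 TPM in Pele, 259.57 and 303.55 TPM in Keo and 258.5 TPM in Hua. Of the 23, 16 lay at or above the median of all identifiers (18.6 TPM) and 7 were in the top 10%.

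**Figure D1:**
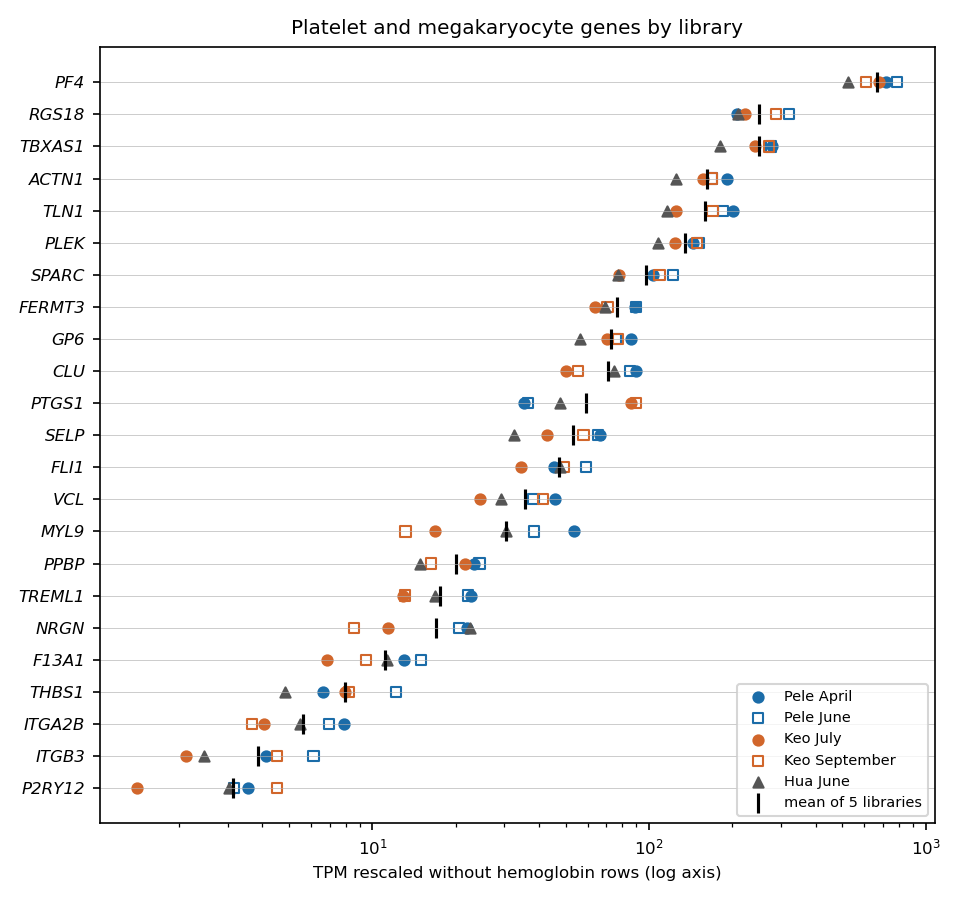
Rescaled TPM of the 23 genes (log axis), 1 point for each of the 5 libraries and a bar for their mean, ordered by mean. *PF4* stands alone at the top with 526 to 788 TPM, *PTGS1* is the gene in which both Keo libraries lie above both Pele libraries, and *MYL9* has the widest spread, from 13.2 to 53.6 TPM.

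Among alpha granule proteins, the chemokine *PF4* (platelet factor 4, CXCL4, Entrez 5196) was the most abundant gene of all 23, ranking 108 of 7669 identifiers. It stood at 719 TPM in Pele April, 788 in Pele June, 680 in Keo July, 610 in Keo September and 526 in Hua June. All 5 libraries held it at a high level, with a coefficient of variation of 15.2%, and it made up more than any other gene of the summed level. *PPBP* (Entrez 5473), the precursor of the chemokine CXCL7, was far lower, with 23.3 and 24.4 TPM in Pele, 21.6 and 16.3 TPM in Keo and 14.9 TPM in Hua. The ratio of *PF4* to *PPBP* was narrow all the same, between 30.8 in Pele April and 37.3 in Keo September (33.5 ± 2.77, SD, n = 5). Both chemokines were highest in Pele June and lowest in Hua. Chemokine genes of this cluster are close relatives, so a transcript assigned to one human chemokine may belong to a dolphin relative, and the RefSeq gene table carries the symbol *PPBP* but not *PF4*.

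*SPARC*, a collagen-binding glycoprotein, had 103 and 122 TPM in Pele, 77.7 and 109 TPM in Keo and 77.2 TPM in Hua. P-selectin (*SELP*), the granule membrane protein that binds leukocytes once exposed, had 66.7 and 65.5 TPM in Pele, 42.6 and 57.9 TPM in Keo and 32.5 TPM in Hua. Pele and Keo did not overlap for *SELP*, whereas for *SPARC* Keo September lay above Pele April. Clusterin (*CLU*), a secreted chaperone, had 89.5 and 85.4 TPM in Pele, 49.98 and 55.5 TPM in Keo and 74.7 TPM in Hua, so that Hua fell between the other animals. Factor XIII A chain (*F13A1*), the enzyme subunit that crosslinks fibrin and is also made by monocytes, had 13.04 and 14.9 TPM in Pele, 6.88 and 9.46 TPM in Keo and 11.3 TPM in Hua. Thrombospondin 1 (*THBS1*), an adhesive protein that stabilises aggregates, was low at 7.97 ± 2.73 TPM.

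Of the receptors among the 23 genes, the most abundant was *GP6*, the immunoglobulin-like receptor that signals on collagen. It had 85.9 and 76.0 TPM in Pele, 70.3 and 77.1 TPM in Keo and 56.1 TPM in Hua. Its identifier is that of the closest human protein, so a transcript assigned to *GP6* may belong to a dolphin relative. Whether it does was not tested. The chains of the fibrinogen receptor were low in comparison. *ITGA2B*, the alpha IIb chain, had 7.91 and 6.97 TPM in Pele, 4.05 and 3.67 TPM in Keo and 5.46 TPM in Hua. *ITGB3*, the beta 3 chain that pairs with it, had 4.11 and 6.13 TPM in Pele, 2.12 and 4.53 TPM in Keo and 2.46 TPM in Hua. The ratio of *ITGA2B* to *ITGB3* ran from 0.810 in Keo September to 2.22 in Hua June. Both levels under it were low, 1.03 to 3.05 deposited TPM for *ITGA2B* and 0.54 to 2.68 for *ITGB3*. Whether the chains keep a constant proportion therefore cannot be told from it. The ratio of *GP6* to *ITGA2B* was 14.1 ± 4.84 (SD, n = 5). *TREML1* (TLT-1, Entrez 340205), a receptor of alpha granules that binds fibrinogen, had 22.7 and 22.1 TPM in Pele, 12.9 and 13.1 TPM in Keo and 16.8 TPM in Hua. The 2 libraries of each animal were nearly equal for this sum of 2 transcripts. In Keo the transcripts themselves were not, the smaller one being at 5.07 TPM in July and 2.75 TPM in September. *P2RY12*, the ADP receptor blocked by clopidogrel, was the lowest of the 23 genes at 3.14 ± 1.13 TPM.

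The genes that couple the integrin to actin were abundant. Alpha-actinin 1 (*ACTN1*), which crosslinks actin filaments, had 191 and 169 TPM in Pele, 156 and 169 TPM in Keo and 125 TPM in Hua. Talin 1 (*TLN1*), which binds the integrin tail, had 201 and 185 TPM in Pele, 126 and 170 TPM in Keo and 116 TPM in Hua. All 5 libraries thus held both genes above 100 TPM, with Hua lowest. Pleckstrin (*PLEK*), a major substrate of protein kinase C in platelets, had 145 and 152 TPM in Pele, 124 and 149 TPM in Keo and 108 TPM in Hua. Kindlin 3 (*FERMT3*), which activates integrins together with talin, had 88.7 and 89.5 TPM in Pele, 64.0 and 70.8 TPM in Keo and 69.2 TPM in Hua. Pele and Keo overlapped for *PLEK* and not for *FERMT3*. Vinculin (*VCL*), which ties talin to actin, had 35.7 ± 8.79 TPM. These genes are also used by leukocytes, the main nucleated cells of the blood. *MYL9* (Entrez 10398), a regulatory light chain of myosin, had the largest relative spread of the 23 genes (coefficient of variation 54.0%). It stood at 53.6 and 38.4 TPM in Pele, 16.8 and 13.2 TPM in Keo and 30.5 TPM in Hua, with no overlap between the animals.

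The thromboxane pathway was represented by both of its listed enzymes. Thromboxane A synthase 1 (*TBXAS1*), which makes thromboxane from prostaglandin H2, had 278 and 276 TPM in Pele, 241 and 271 TPM in Keo and 180 TPM in Hua. Prostaglandin G/H synthase 1 (*PTGS1*, cyclooxygenase 1, Entrez 5742), the enzyme upstream of it and the target of aspirin, had 35.3 and 36.6 TPM in Pele, 86.1 and 89.8 TPM in Keo and 47.5 TPM in Hua. The ratio of *TBXAS1* to *PTGS1* was 7.88 and 7.55 in Pele, 2.80 and 3.02 in Keo and 3.79 in Hua. In Keo the lower ratio went with higher *PTGS1*, and in Hua *TBXAS1* was also at its lowest. *RGS18*, a regulator of G protein signalling found in platelets and myeloid cells, was second in level, with 208 and 320 TPM in Pele, 223 and 288 TPM in Keo and 209 TPM in Hua, so that the libraries of Pele were its extremes. Neurogranin (*NRGN*), a calmodulin-binding protein known from neurons and platelets, had 21.98 and 20.5 TPM in Pele, 11.4 and 8.57 TPM in Keo and 22.5 TPM in Hua. It was the only gene of the 23 that was highest in Hua, as 19.6% of all features were. The transcription factor *FLI1*, which acts in megakaryocytes and in other blood and endothelial cells, had 47.2 ± 8.94 TPM.

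To ask whether the animals differed, Keo and Pele were compared with limma on log2(rescaled TPM + 1) over all 23640 features, with an animal term over the 5 libraries. Of the 23 genes, 5 passed an adjusted p under 0.05 (21.7%), against 1.84% of all features. Lower in Keo were 4 of the 23 (17.4%), against 0.766% of all features, and higher was 1 of the 23 (4.35%), against 1.07%. At an unadjusted p under 0.05 there were 10, against 15.3%. *MYL9* was lower by 1.55 on the log2 scale (Keo minus Pele -1.55, standard error 0.19, adjusted p = 0.0096), and its mean in Pele was 3.07-fold that in Keo. *NRGN* followed with -1.03 (standard error 0.17, adjusted p = 0.029), then *TREML1* with -0.74 (standard error 0.14, adjusted p = 0.044) and *CLU* with -0.72 (standard error 0.13, adjusted p = 0.034). *PTGS1* went the other way, at 1.27 (standard error 0.12, adjusted p = 0.0034), with a mean in Keo 2.45-fold that in Pele. The difference between the animals exceeded that between the dates within either animal in 9 of the 23 genes (39.1%), close to the 34.5% of all features. Genes that did not pass had standard errors from 0.12 to 0.41, and the most abundant, *PF4*, was at -0.225 (standard error 0.14, adjusted p = 0.485).

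The calls rested on few libraries and on the variance model. Leaving out a library of Keo or Pele leaves that animal with 1, so only the differences of those fits are given here. Without the trend of variance on level none of the 23 genes passed limma. Of all 23640 features 66 then passed, against 434 with the trend. At an unadjusted p under 0.05 there were 8 of the 23, against 10 with the trend. The adjusted p from limma was 0.059 for *PTGS1* and 0.075 for *MYL9*. In all these fits the differences of the 5 genes kept their direction, *MYL9* between -1.78 and -1.31 and *PTGS1* between 1.239 and 1.298. An exact permutation test of 2 against 2 libraries cannot give a two-sided p below 0.33.

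**Figure D2:**
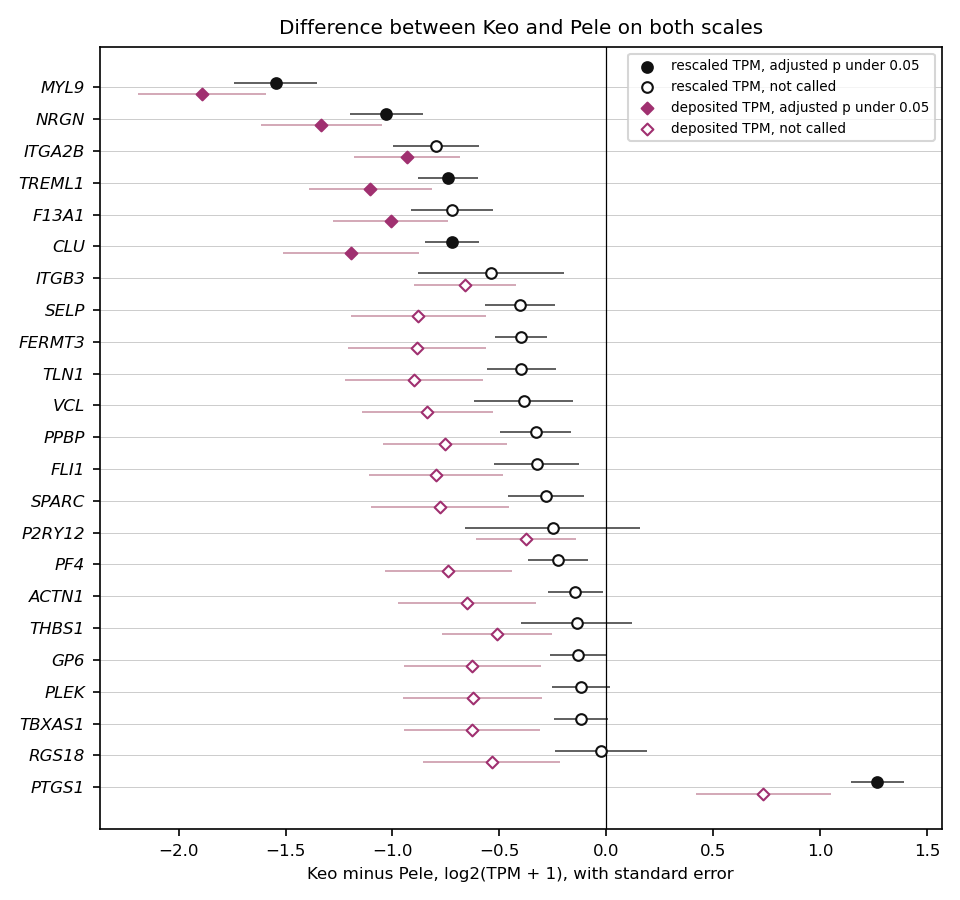
Keo minus Pele in log2(TPM + 1) for each of the 23 genes with the standard error of limma, on rescaled TPM (circles) and deposited TPM (diamonds), filled where the adjusted p was under 0.05. On both scales 22 genes lie below 0, as do 57.1% of all features after rescaling and 92.2% on deposited TPM, *PTGS1* lies above, and the deposited values are shifted to the left.

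The scale moved the size of the differences. On deposited TPM the median difference of all features was -0.43, against -0.06 after rescaling, and of 2418 calls 94.2% were lower in Keo, against 41.7% of 434 after rescaling. Of the 23 genes 6 were then called, all lower in Keo (26.1%, against 9.64% of all features lower and 10.2% called in either direction, with 0.592% higher). They were *MYL9* (-1.89, adjusted p = 8.4e-08), *NRGN* (-1.33, adjusted p = 0.000245), *CLU* (-1.19, adjusted p = 0.0070), *TREML1* (-1.10, adjusted p = 0.0048), *F13A1* (-1.01, adjusted p = 0.0069) and *ITGA2B* (-0.93, adjusted p = 0.00635 from limma). *PTGS1* was at 0.73 and did not pass (adjusted p = 0.094). Its mean in deposited TPM was 14.4 in Pele and 24.5 in Keo, and the libraries of the animals did not overlap on either scale, a pattern that 2.77% of all features showed in this direction on deposited TPM. *ITGA2B* and *F13A1* had not passed after rescaling (-0.80 and -0.72, adjusted p = 0.11 and 0.12), although both Keo libraries lay below both Pele libraries. On the deposited scale limma estimated infinite prior degrees of freedom, which sets each standard error from the trend over features and not from the gene's own spread.

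The median difference of the 23 genes was -0.33 after rescaling, beside -0.06 for all features and -0.08 for all features with an identifier. The restricted genes had a median of -0.47 (range -1.55 to -0.13) and the shared genes one of -0.25 (range -0.72 to 1.27). Whether these groups differ was not tested. Of the 23 genes, 22 lay below 0, as did 57.1% of all features. Both Keo libraries lay below both Pele libraries in 13 of 23, among them 7 of the 10 restricted genes, against 28.1% of all features, and above them in 1 (*PTGS1*), against 19.8%. On deposited TPM, 19 of 23 lay fully below, but so did 68.1% of all features.

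Each date within an animal is a single library, so dates were compared without a test. In Keo, 18 of 23 (78.3%) were higher in September than in July, against 61.8% of all features, and in Pele 11 of 23 (47.8%) were higher in June than in April, close to the 53.4% of all features. The median gap between the dates on the log2 scale was 0.33 in Keo, beside 0.21 over all features, and 0.13 in Pele, beside 0.19. *P2RY12* changed most within an animal, being at 1.41 TPM in July and at 4.53 TPM in September in Keo. *THBS1* had 6.61 TPM in Pele April and 12.2 TPM in Pele June, whereas it was nearly equal in the libraries of Keo (7.98 and 8.24 TPM). The coefficient of variation over the 5 libraries had a median of 24.6% among the 23 genes, beside 18.3% for all features. It ran from 14.0% for *PLEK* to 54.0% for *MYL9*. All features include many low transcripts, and among identifiers with a mean of at least 10 TPM the median was 12.4%. Of the 23 genes, 4 had a mean under 10 TPM.

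Hua, with a single library, could not be tested. Its library was the lowest of the 5 for 10 of the 23 genes, against 28.7% of all features, and these were *PF4*, *PPBP*, *SPARC*, *SELP*, *THBS1*, *GP6*, *ACTN1*, *TLN1*, *PLEK* and *TBXAS1*. Relative to the midpoint between the other animals, *SELP* was lowest in Hua with a difference of -0.80 in log2(TPM + 1), followed by *THBS1* with -0.72 and *TBXAS1* with -0.56. *NRGN* was higher in Hua by 0.59. The median over the 23 genes was -0.31, beside -0.05 over all features. All 10 genes that were lowest in Hua also had a Keo minus Pele difference below 0, as 22 of the 23 genes did. In 6 of the 10 (*PF4*, *PPBP*, *SELP*, *ACTN1*, *TLN1* and *TBXAS1*) both Keo libraries lay below both Pele libraries. This held for 13 of all 23 genes and for 28.1% of all features. None of the 10 passed limma, and the share of all features with both patterns was not counted. Of the 4 genes called lower in Keo, *MYL9*, *CLU* and *TREML1* lay between Keo and Pele in Hua.

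**Figure D3:**
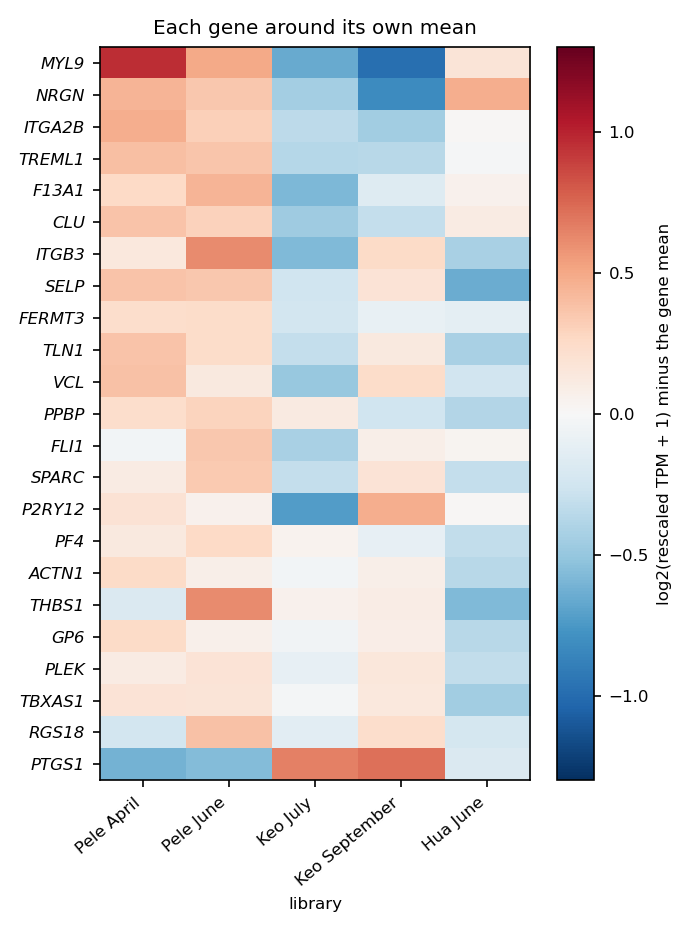
Deviation of log2(rescaled TPM + 1) from the gene's mean over 5 libraries, for the 23 genes in the order of their Keo minus Pele difference. *MYL9*, *NRGN*, *TREML1* and *CLU* are low in both Keo columns, *PTGS1* is high there, and *SELP*, *THBS1* and *TBXAS1* are lowest in the Hua column.

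Of the genes with a pair of transcripts in the table, the more abundant transcript held at least 94.4% of the level for *GP6* and *PLEK*, and 60.8% to 87.3% for *TREML1*. The transcripts of *TREML1* did not move together. The larger one had a Keo minus Pele difference of -1.01, and the smaller one, at 2.75 to 5.07 TPM, one of 0.16. Likewise the smaller transcript of *TBXAS1* was at 0.12 and the larger at -0.17. With every transcript taken by itself the same 5 genes passed limma, *TREML1* through its larger transcript (adjusted p = 0.045).

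Other genes of the platelet pathway came from lists drawn up by function. Beside their counts, 0.766% of all features were called lower and 1.07% higher in Keo after rescaling, and 15.3% had an unadjusted p under 0.05. On deposited TPM 9.64% of all features were called lower and 0.592% higher. Of 9 transcription factors of megakaryocytes 7 had a row and none passed limma between Keo and Pele (1 at an unadjusted p under 0.05, and none on deposited TPM). That 1 was *GATA1*, which was higher in Keo (0.74, adjusted p = 0.0765 from limma). Of the 7 genes 5 had a difference below 0, and *GATA1* and *TAL1* (0.56) lay above 0. *NFE2*, a factor of platelet release, had 97.0 ± 19.3 TPM and *GFI1B*, a repressor of the megakaryocyte and erythroid lineages, 51.0 ± 6.12 TPM. Of 39 receptors and signalling proteins 26 had a row, 1 was lower and 1 was higher in Keo. The lower one was *CD36*, a receptor for thrombospondin that monocytes share, with 555 and 621 TPM in Pele, 333 and 334 TPM in Keo and 233 TPM in Hua (-0.81, standard error 0.13, adjusted p = 0.024). The higher one was *ITGA6*, a laminin receptor chain, with 21.2 and 16.98 TPM in Pele, 41.8 and 47.0 TPM in Keo and 42.7 TPM in Hua (1.18, standard error 0.15, adjusted p = 0.011). On deposited TPM *CD36* was still called (-1.32, adjusted p = 0.00136) and *ITGA6* was not (0.64, adjusted p = 0.12). *FCER1G*, the signalling chain that *GP6* needs and that myeloid cells also use, was the most abundant of that list at 1739 ± 289 TPM, and *VASP*, a regulator of actin, had 485 ± 80.8 TPM. Of 24 genes of granule formation and release 15 had a row, led by the granule proteoglycan serglycin (*SRGN*, 1607 ± 317 TPM) and *CD63* (246 ± 40.8 TPM), and none passed limma (4 at an unadjusted p under 0.05, and none on deposited TPM). Of 15 further cytoskeletal genes 8 had a row, led by thymosin beta 4 (*TMSB4X*, 3766 ± 438 TPM) and profilin 1 (*PFN1*, 633 ± 69.9 TPM), and again none passed (3 at an unadjusted p under 0.05, and 1 lower in Keo on deposited TPM).

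Markers of other blood cells moved between the same libraries. The shares of all features to set beside their counts are 0.766% called lower and 1.07% called higher in Keo after rescaling, and 15.3% at an unadjusted p under 0.05. On deposited TPM they are 9.64% called lower and 0.592% called higher. The 9 erythroid genes with a row, hemoglobin rows of the rescaling left aside, summed to 11782 and 8403 TPM in Pele, 19163 and 14494 TPM in Keo and 25389 TPM in Hua. *ALAS2*, the first enzyme of heme synthesis in red cells, and *HBM*, a further globin gene, were the most abundant of them (11230 ± 4936 and 3215 ± 1230 TPM). All 9 had a difference above 0 in Keo, whereas 57.1% of all features lay below 0. All 9 had an unadjusted p under 0.05 in limma, against 15.3% of all features. *BNIP3L*, *FECH* and *SPTB*, 3 of the 9, passed after adjustment, against 1.07% of all features called higher. Of these *FECH* alone also passed on deposited TPM. The 6 neutrophil genes with a row summed to 4750 and 4981 TPM in Pele, 2558 and 3510 TPM in Keo and 1834 TPM in Hua. The calprotectin subunits *S100A8* and *S100A9* led the list (1224 ± 457 and 924.6 ± 520.2 TPM). *S100A9* was called lower in Keo (-1.21, adjusted p = 0.035) and *CAMP* higher (1.16, adjusted p = 0.022 from limma), and 5 of the 6 had an unadjusted p under 0.05. On deposited TPM 4 of the 6 were called lower in Keo, against 9.64% of all features, and none higher, with *CAMP* at 0.63 (adjusted p = 0.144 from limma). The 9 monocyte genes, led by lysozyme (*LYZ*, 25565 ± 4525 TPM) and *FCN1* (281 ± 63.8 TPM), summed to between 19854 TPM in Hua and 31530 TPM in Pele June with no call (0 at an unadjusted p under 0.05, and 2 lower in Keo on deposited TPM). The 9 T and NK cell genes with a row, led by the T cell receptor chains *CD3E* and *CD247*, stayed between 815 and 907 TPM in sum, with *NKG7*, a granule protein of cytotoxic lymphocytes, lower in Keo (-1.51, adjusted p = 0.0043 from limma). The 6 B cell genes with a row, led by the B cell receptor chains *CD79B* and *CD79A*, summed to 225 TPM in Keo September up to 403 TPM in Hua, with no call (5 at an unadjusted p under 0.05, and 3 lower in Keo on deposited TPM). Of 9 endothelial genes 1 had a row (*ENG*, 9.64 ± 0.65 TPM), and *CDH5*, *KDR*, *TEK* and *TIE1* had none. The part of these shifts in the differences of the platelet genes was not tested.

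**Figure D4:**
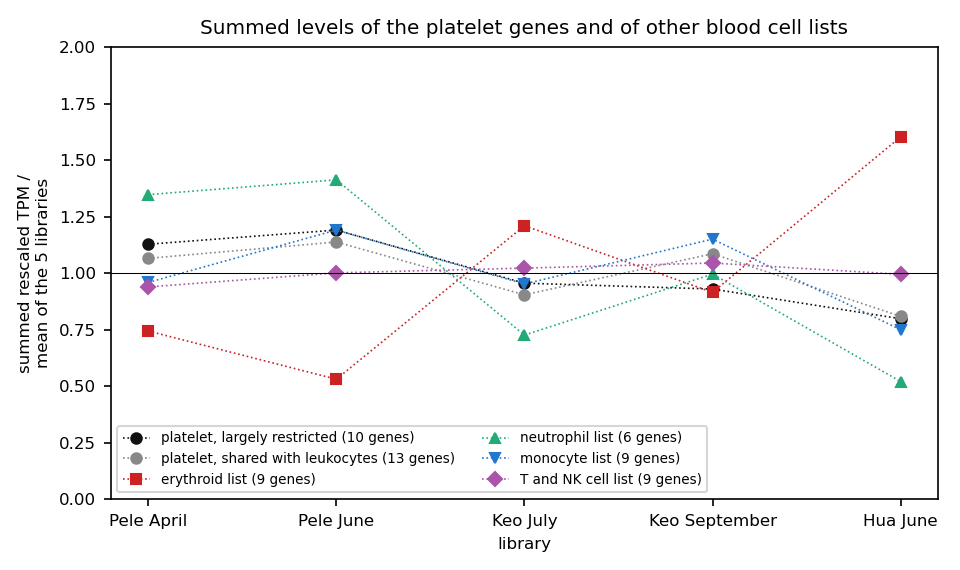
Summed rescaled TPM of the 10 restricted and 13 shared platelet genes and of 4 other blood cell lists in each library, divided by the list's mean over the 5 libraries. The erythroid sum is highest in Hua (25389 TPM) and lowest in Pele June (8403 TPM), and the T and NK cell sum stays between 815 and 907 TPM. The neutrophil, monocyte and platelet sums are all highest in Pele June and lowest in Hua. The restricted sum is mostly *PF4*. Without it, that sum is highest in Pele April (389.72 TPM) and about equal in Hua (258.5 TPM) and Keo July (259.57 TPM). Dotted lines join the points of a list for the eye only.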

How the data were processed

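Whole blood RNA of 3 dolphins was measured in 5 libraries. The authors deposited 1 table of TPM per de novo assembled transcript, made according to the submitters' notes with Trimmomatic, Bowtie2 and RSEM 1.2.21. The unit was read from the sums, 992549 to 994131 per library, and not from the paper's methods, which speak of FPKM. TPM keeps no depth, so no counting interval is given and the precision is the SD between libraries. The labels name animals by code, and the names used were matched to them by age and sex.

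Rows sharing an Entrez identifier were summed. The 4 rows of a pair of hemoglobin identifiers were removed and each library rescaled to 1000000. Keo was compared with Pele by limma (version 3.58.1, R version 4.3.3) (trend of variance, 1 coefficient per animal, Benjamini-Hochberg over 23640 features at 0.05) on log2(TPM + 1), which understates changes of low genes. On simulated data for that comparison, with 23640 features, 92% of shifts by 2 and 19% of shifts by 1 on the log2 scale were recovered, and 8 of 119 calls were false. Python 3.11.15, numpy 2.4.6, pandas 2.3.3 and matplotlib 3.10.9 were used otherwise.

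The members and lists were chosen with earlier results of these data known. All members with a row are named, with every library for those at a mean of 50 TPM or more, those called and the chains of a receptor, and from other lists the 2 most abundant genes and those called. *GATA1* and *TAL1* are named besides, as the megakaryocyte factors with a difference above 0. The table holds identifiers without symbols. Symbols of the other lists were assigned to human Entrez identifiers from general knowledge. One gene of the erythroid list is not reported here and was left out of its counts and sums. No sequences are shown. Alternatives were the scale, the pseudocount (0.5), a filter at 5 TPM, no trend, quantile normalization, unsummed rows and each library left out in turn.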

Additional observations from a re-analysis of the deposited data

Results flagged for a closer look

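Gaps between libraries were examined in 46 cases (23 genes on both scales), and in 1 case a single library lay apart. *THBS1* had 5.34 deposited TPM in Pele June, against 1.33 to 2.49 TPM in the other libraries. After rescaling it had 12.2 TPM there against 4.81 to 8.24 TPM and was no longer apart. Chance gives about 1 in 20 such cases in groups of this size.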

How the results depend on the processing

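Deposited TPM gave 2418 features called in place of 434, a median difference of the 23 genes of -0.78 in place of -0.33, and a summed level of 750.3 TPM. Without the trend of variance 66 features and 0 of the 23 genes were called, and quantile normalization called 3 of the genes (*CLU*, *MYL9* and *PTGS1*). A pseudocount of 0.5, a filter at 5 TPM, which removed *ITGB3* and *P2RY12*, and unsummed transcripts each kept the same 5 genes. With 1 library left out, rescaled values gave 24 to 719 features, 0 to 5 genes, not always from the same 5, and medians from -0.578 to -0.125. On deposited TPM, an alternative chosen after seeing the data, the same fits gave 339 to 2383 features (844 without Pele April, 2017 without Keo September), 1 to 7 genes (2 without Keo July) and medians from -0.972 to -0.474 (-0.969 without Pele April, -0.598 without Pele June). Genes near 0 changed sign when a library was left out. These were *THBS1* (0.26) and *RGS18* (0.29) without Pele June, *P2RY12* (0.35), *RGS18* (0.16) and *PLEK* (0.011) without Keo July, and *P2RY12* (0.0249) without Keo July on deposited TPM, none of them called. Over the fits with 1 library left out, their lowest values on rescaled TPM were -0.54 for *THBS1*, -0.34 for *RGS18*, -0.85 for *P2RY12* and -0.25 for *PLEK*. No paired analysis was possible because Keo and Pele are different animals drawn on dates that do not match. The paper states a targeted depth for the undepleted libraries, but the number of reads behind low genes such as *P2RY12* is unknown.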
